A study of Homo sapiens with 6 samples.

Results

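Transcripts of the collagen and laminin chains were measured in 3 MDA-MB-231 clones carrying a hairpin against WASF3 and in 3 control clones. The set holds every gene whose symbol on the array reads COL, a number, A and a number, together with the laminin chains of the LAMA, LAMB and LAMC families. It came to 53 genes of 19775 named on the array, 43 of them collagen chains and 10 laminin chains. The brightest probe set on average over the 6 arrays stands for its gene. COL18A1-AS1, an antisense transcript, was left out, and COL17A1 and LAMA3 were not analysed here.

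MDA-MB-231 is an established, highly invasive line of human triple-negative breast cancer. All clones came from passage 4 cells grown with 10% fetal bovine serum, were infected with a pSM2 retroviral vector and were picked as single clones after 2 weeks in 1.0 µg/ml puromycin. The knockdown vectors held 1 of 2 short hairpins against WASF3, and the control vectors were empty or held a hairpin against GFP. Which hairpin or control vector a given clone carries is not stated in the labels, so clone and vector cannot be told apart. Each group is a set of single-cell-derived clones of 1 line, and the spread within a group is that between clones. WASF3 encodes a WAVE protein, which turns on the ARP2/3 complex and actin branching at the cell edge.

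Collagens and laminins are secreted proteins that assemble from several chains before they leave the cell, so the level of 1 chain can limit a whole molecule. Fibrillar collagens form the banded fibrils of connective tissue, and collagen V sits inside such fibrils and sets their width. Collagen IV and the laminins, each laminin made of an alpha, a beta and a gamma chain, form the 2 networks of the basement membrane, the sheet that an invading carcinoma cell has to cross. The remaining chains include the beaded filaments of collagen VI, the anchoring fibrils of collagen VII, network-forming, fibril-associated and transmembrane collagens, and multiplexins of the basement membrane zone.

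Values are log2 RMA signals, in which 1 unit is a doubling. A change is the knockdown mean less the control mean, with the standard error (SE) from limma, group values are mean ± SD over 3 clones, and a gene is called when its Benjamini-Hochberg adjusted p over all probe sets is under 0.05. A signal was taken as above background where it exceeded, on every array of a group, the 95th percentile of 82 olfactory receptor genes, which ran from 5.24 to 5.43. WASF3 itself read 5.40, 5.80 and 4.53 in knockdown clones 1, 2 and 3 and 6.77, 6.42 and 6.59 in control clones 1, 2 and 3. Its groups did not overlap, although the change of −1.35 (SE 0.29) missed the threshold (limma adjusted p = 0.102). RNA quality was followed as the excess of 3′ over 5′ signal on the GAPDH and ACTB control probe sets, which was 1.80 ± 0.27 in knockdown and 1.29 ± 0.17 in control clones (n = 3, exact two-sided permutation p = 0.1, the smallest that 3 against 3 allows). All 5 markers of the mesenchymal-like MDA-MB-231 state (VIM, AXL, CD44, CAV1 and ZEB1) were above background in both groups and none was called in limma. Of the 8 fibroblast markers, PDGFRB and S100A4 were above background in both groups and DCN, LUM, PDGFRA, FAP, THY1 and TCF21 were not, with summed log2 levels of 40.4 to 42.3 in knockdown and 42.1 to 42.9 in control clones. S100A4 alone read 12.63, 10.52 and 10.44 in knockdown and 12.76, 12.81 and 12.77 in control clones 1, 2 and 3, so that the groups did not overlap and clones 2 and 3 were at 20.9% and 19.7% of the control mean (change −1.58, SE 0.53, limma adjusted p = 0.242). Of the 8 luminal breast markers, 5 were above background in both groups (KRT8, KRT18, EPCAM, GATA3 and ESR1) and none was called in limma (3 of the 8 were lower at an unadjusted p under 0.05), with summed log2 levels of 53.1 to 59.4 in knockdown and 55.9 to 57.2 in control clones. In KRT8 (change −0.58, SE 0.16) and KRT18 (−0.47, SE 0.19) every knockdown clone lay below every control clone. EPCAM (0.50, SE 0.29) and CDH1 (0.47, SE 0.72) had higher knockdown means, with overlapping groups. In knockdown clones 1, 2 and 3 EPCAM was at 132.5%, 228.9% and 93.5% of the control mean. CDH1 was at 524.8%, 70.5% and 72.2%, and GATA3, whose groups also overlapped, at 131.0%, 71.9% and 62.9%. The part of these markers in the chains' values was not tested.

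Of the 53 chains, 6 fell in the knockdown clones and 0 rose (limma, adjusted p under 0.05), where 0.42% of all genes were called lower and 0.319% higher. The 6 are the fibrillar chain COL5A1, the basement membrane chains COL4A2, LAMA5 and LAMB3, and COL6A3 and COL7A1 among the other collagens. Their levels in the knockdown clones were between 34.1% and 62.8% of control. At an unadjusted p under 0.05 there were 12 lower chains and 1 higher, LAMB1, where 7.67% and 9.11% of all genes were lower and higher at that level. In 15 chains every knockdown clone lay below every control clone and in 1 above, against 12.6% and 12.1% of all genes. The median change was −0.12 over the 53 chains and −0.01 over all genes, and 38 of the 53 had a lower mean in the knockdown clones.

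**Figure D1:**
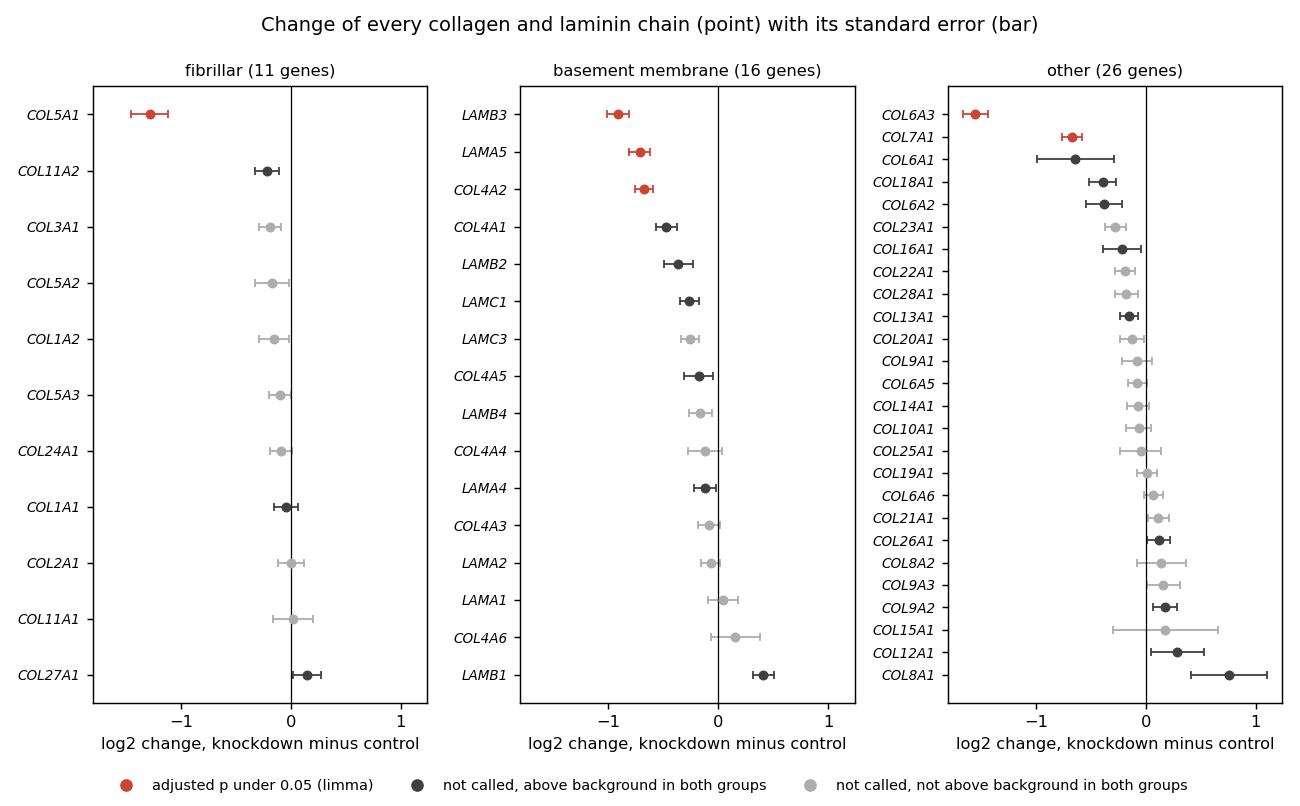
Change of each of the 53 chains between 3 knockdown and 3 control clones in log2 units (points), with standard errors from limma (bars), by class. The 6 called chains (red) all lie to the left of 0, between −1.55 and −0.67, and most grey points, which are not above background in both groups, lie close to 0.

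Many of these genes did not exceed the background level in this line on their brightest probe set. Above background in both groups were 24 chains, 28 were above it in neither group, and COL4A4 was above it in the control clones alone. The 24 comprised 4 of 11 fibrillar, 9 of 16 basement membrane and 11 of 26 other chains, and all 6 called chains were among them. The share of all genes above background in both groups that was called lower was 0.587%. In 12 of these 24 chains the knockdown clones all lay below the control clones, against 14.7% of the genes above background, and in 1, LAMB1, all lay above, against 17.2%. Their median change was −0.24, against 0.01 for all genes above background. By clone it was −0.18, −0.27 and −0.29 in knockdown clones 1, 2 and 3. The knockdown clones were more spread than the control clones in 19 of the 24, as they were in 10161 of the 11585 genes above background.

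COL5A1, the chain present in the common form of collagen V, was the 1 fibrillar chain called. It read 9.04, 8.37 and 8.47 in knockdown clones 1, 2 and 3 and 9.87, 9.92 and 9.96 in control clones 1, 2 and 3. Knockdown clone 1 kept the most signal, at 54.5% of the control mean, and clones 2 and 3 had 34.4% and 36.8%. The change was −1.29 (SE 0.17, limma adjusted p = 0.0377). All 3 probe sets of COL5A1 pointed down and 2 of them passed. Its usual partner in the collagen V molecule, COL5A2, was not above background in either group (4.11 ± 0.24 in knockdown and 4.28 ± 0.21 in control clones), nor was COL5A3 (4.96 ± 0.06 and 5.06 ± 0.13).

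The other fibrillar chains gave no call. COL1A1 and COL27A1, named after their values were seen, were above background in both groups. COL1A1 changed by −0.05 (SE 0.11) on its brightest probe set, the only 1 of its 5 that pointed down. Its next brightest read 8.14, 7.18 and 7.03 in knockdown and 6.71, 6.75 and 6.73 in control clones 1, 2 and 3. The change there was 0.72 (SE 0.27, limma adjusted p = 0.286). COL27A1 changed by 0.14 (SE 0.13), and 2 of its 5 probe sets pointed up. COL11A2, a cartilage-type chain, was lower in every knockdown clone, at 6.29 ± 0.17 against 6.51 ± 0.02, a change of −0.22 (SE 0.11, limma adjusted p = 0.417). COL3A1, the chain of the reticular collagen III, was not above background at 3.53 ± 0.09 in knockdown and 3.72 ± 0.11 in control clones. The median change of the 11 fibrillar chains was −0.10 and that of the 4 above background −0.13.

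Collagen IV of ordinary basement membranes is built from COL4A1 and COL4A2, whose genes lie head to head and share 1 promoter. COL4A2 read 10.64, 10.57 and 10.54 in knockdown and 11.28, 11.23 and 11.27 in control clones 1, 2 and 3. It fell by 0.68 (SE 0.08, limma adjusted p = 0.0316), and both of its probe sets passed. COL4A1 read 8.99, 9.21 and 9.05 in knockdown and 9.52, 9.52 and 9.63 in control clones 1, 2 and 3. Its groups did not overlap either, and both of its probe sets pointed down, but the change of −0.47 (SE 0.09) was not called (limma adjusted p = 0.0827). Within arrays, the COL4A1 to COL4A2 difference of the knockdown clones stood 0.05, 0.34 and 0.22 above the mean of the control clones, which ran from −0.06 to 0.06. Clones 2 and 3 thus lay outside the control range and clone 1 within it, and this difference was not tested.

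The stretch between the start sites of these genes is shown because both chains are read outward from it. It is 126 bases long at chr13:110307158-110307283 (GRCh38.p14, plus strand, from RefSeq promoter windows), with COL4A1 on its left and COL4A2 on its right, and holds 20 CG dinucleotides. Capitals mark a GC box, GGGCGG.
COL4A1-COL4A2: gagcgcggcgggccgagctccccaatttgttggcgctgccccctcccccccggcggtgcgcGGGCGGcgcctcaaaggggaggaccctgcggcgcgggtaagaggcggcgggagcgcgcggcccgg

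The remaining collagen IV chains, which replace COL4A1 and COL4A2 in specialised membranes such as that of the kidney glomerulus, were not called. COL4A5 was above background in both groups at 7.22 ± 0.24 in knockdown and 7.40 ± 0.06 in control clones (change −0.18, SE 0.13), and its 2 probe sets differed in sign. COL4A4, beside COL4A3 on the chromosome, read 5.55 ± 0.31 and 5.67 ± 0.03. COL4A3 (3.97 ± 0.11 and 4.06 ± 0.11) and COL4A6 (3.60 ± 0.28 and 3.45 ± 0.42) were not above background in either group.

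Among the laminins, 1 alpha and 1 beta chain fell. LAMB3, the beta chain of the epithelial laminin that binds hemidesmosomes, read 10.24, 9.95 and 10.12 in knockdown and 10.98, 11.01 and 11.05 in control clones 1, 2 and 3. The change was −0.91 (SE 0.10, limma adjusted p = 0.0311) on its 1 probe set, and every knockdown clone was between 47.8% and 58.3% of control. LAMA5, the alpha chain of the most widespread adult basement membrane laminins, read 10.99, 10.74 and 10.90 in knockdown and 11.56, 11.61 and 11.61 in control clones 1, 2 and 3. It fell by 0.72 (SE 0.09, limma adjusted p = 0.0374), to 60.9% of the control signal, also on 1 probe set. A further probe set, annotated to both LAMA5 and LAMA5-AS1 and so not counted for either, gave 6.24 ± 0.27 against 6.00 ± 0.08 in the control clones and so differed by 0.24 (SE 0.14) in the other direction.

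The chains that join LAMA5 in its trimers did not follow it to the same extent. LAMB1, a beta chain, was higher in the knockdown clones, at 10.02, 10.14 and 9.98 against 9.59, 9.57 and 9.76 in control clones 1, 2 and 3. These groups did not overlap, and the change of 0.41 (SE 0.10) was not called (limma adjusted p = 0.121). LAMC1, the common gamma chain, was lower in every knockdown clone on its brighter probe set, at 11.42, 11.45 and 11.55 against 11.71, 11.70 and 11.81 (change −0.26, SE 0.09, limma adjusted p = 0.234). Its other probe set read 9.79, 10.01 and 10.53 in knockdown and 10.05, 10.16 and 10.15 in control clones, so the groups overlapped there (change −0.01, SE 0.18), and the mean of both gave −0.14. LAMB2, the other beta chain that pairs with LAMA5 and a gene named after its value was seen, read 9.11 ± 0.25 in knockdown and 9.47 ± 0.04 in control clones (change −0.37, SE 0.13, limma adjusted p = 0.277). The LAMB1 to LAMA5 difference within arrays was 0.99, 1.35 and 1.03 higher in knockdown clones 1, 2 and 3 than the control mean, a mean shift of 1.12 ± 0.20, while the control clones had an SD of 0.10. For LAMC1, on its brighter probe set, to LAMA5 the shift was 0.45 ± 0.15 and for LAMB1 to LAMB3 it was 1.32 ± 0.22. In each of these pairs every knockdown clone lay above every control clone. For LAMB1 to LAMA5, and for the beta chains LAMB1 to LAMB3, this follows from the chains themselves. LAMB1 was higher and LAMA5 and LAMB3 were lower in every knockdown clone, so it adds nothing to their separate values. These shifts were not tested. LAMB4, next to LAMB1 on the chromosome, was not above background in either group (3.14 ± 0.16 and 3.30 ± 0.05).

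**Figure D2:**
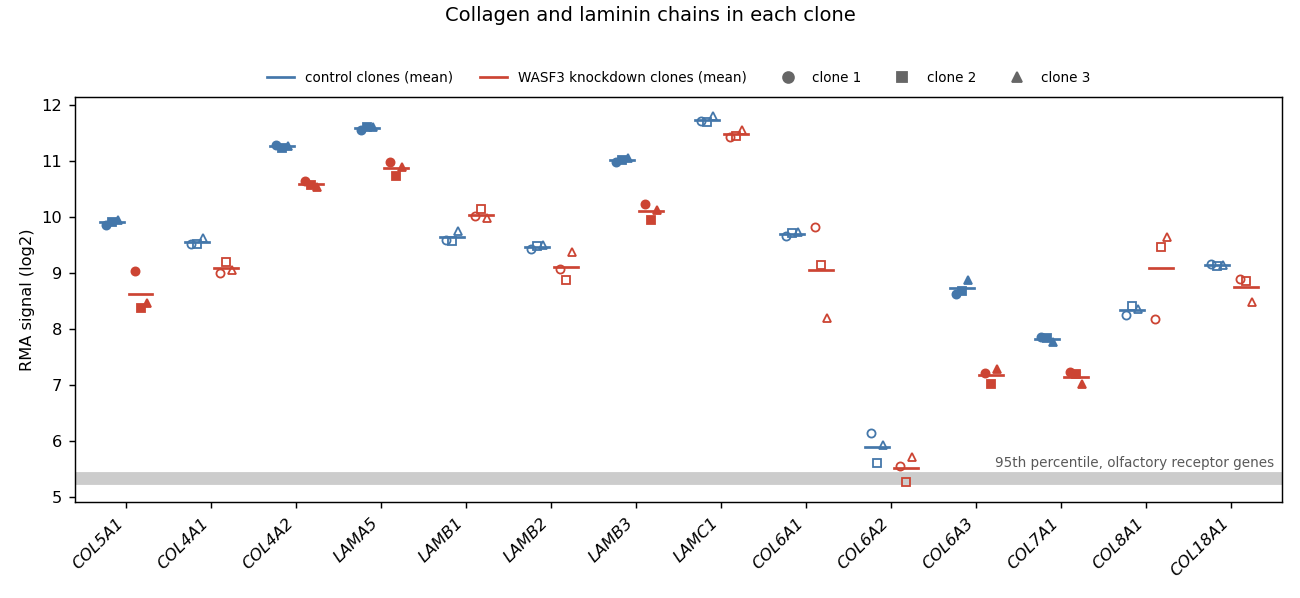
Log2 RMA signal of 14 chains in each clone (symbols), with the group mean (line) for control (blue) and WASF3 knockdown (red) clones. Filled symbols are chains called in limma, and the grey band spans the 95th percentile of olfactory receptor genes over the 6 arrays. LAMB1 and COL8A1 are the chains in this plot with a higher knockdown mean.

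Collagen VI, a beaded filament that links cells to the matrix around them, is put together from COL6A1, COL6A2 and another chain such as COL6A3. COL6A3 had the largest change of all 53 chains. It read 7.22, 7.02 and 7.28 in knockdown and 8.62, 8.68 and 8.88 in control clones 1, 2 and 3. The groups were far apart, with a change of −1.55 (SE 0.11, limma adjusted p = 0.00748) on its 1 probe set. The knockdown clones were close to each other, at 35.3%, 30.7% and 36.7% of the control mean.

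COL6A1 differed from clone to clone on its brightest probe set. There it read 9.83, 9.15 and 8.21 in knockdown clones 1, 2 and 3 and 9.66, 9.71 and 9.74 in control clones 1, 2 and 3. Knockdown clone 1 was thus at 109.3% of the control mean, clone 2 at 68.0% and clone 3 at 35.5%, and the groups overlapped. The change of −0.64 (SE 0.35) was not called (limma adjusted p = 0.480), and 7 of its 8 probe sets pointed down with 0 called. The second brightest probe set showed little spread, at 5.98, 5.91 and 6.06 in knockdown and 6.40, 6.39 and 6.48 in control clones 1, 2 and 3 (change −0.44, SE 0.09, limma adjusted p = 0.0824). In 3 of the 5 probe sets above background in both groups, the brightest not among them, every knockdown clone lay below every control clone. The mean of all 8 gave −0.23 (limma adjusted p = 0.287). COL6A2, whose gene lies beside COL6A1, read 5.56, 5.27 and 5.73 in knockdown and 6.15, 5.62 and 5.93 in control clones 1, 2 and 3 (change −0.38, SE 0.17, limma adjusted p = 0.369). COL6A5 (3.07 ± 0.07 and 3.14 ± 0.05) and COL6A6 (2.93 ± 0.06 and 2.86 ± 0.06), which can take the place of COL6A3, were not above background.

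COL7A1, the single chain of the anchoring fibrils that tie the epidermal basement membrane to the dermis, read 7.23, 7.20 and 7.03 in knockdown and 7.86, 7.84 and 7.77 in control clones 1, 2 and 3. It fell by 0.67 (SE 0.09, limma adjusted p = 0.0397), to 62.8% of control. Its second probe set gave −0.95 (SE 0.26) and did not pass (limma adjusted p = 0.168). The call was lost with an intensity trend in the prior variance, with the mean of both probe sets (change −0.81) and without _x_at and _s_at probe sets. COL7A1 was called in 5 of the 14 other fits, the fewest of the 6 called chains.

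**Figure D3:**
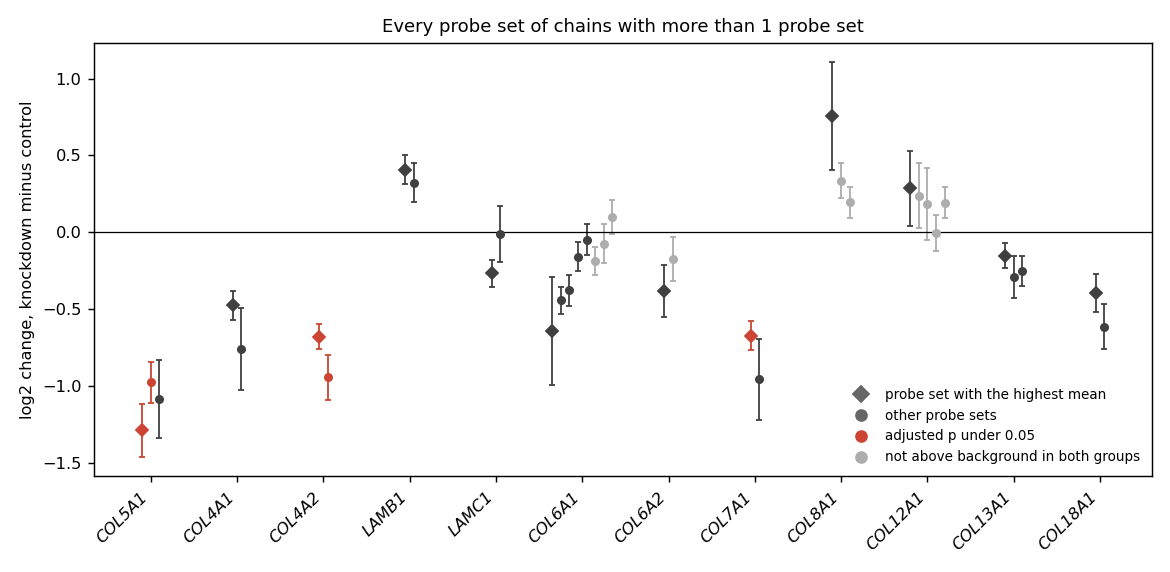
Change with standard error on every probe set of 12 chains that have more than 1. Diamonds are the probe sets with the highest mean, red marks adjusted p under 0.05, and pale grey marks probe sets that are not above background in both groups. The probe sets of COL5A1, COL4A1, COL4A2, COL7A1 and COL18A1 all lie below 0 and those of LAMB1 and COL8A1 above.

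The other chains had no call, and some set the knockdown clones apart from each other. COL8A1, a short chain of the network-forming collagen VIII found around vessels, read 8.18, 9.46 and 9.65 in knockdown clones 1, 2 and 3 and 8.25, 8.41 and 8.36 in control clones 1, 2 and 3. Clones 2 and 3 were at 217.2% and 248.2% of the control mean and clone 1 at 89.5%, so the groups overlapped (change 0.76, SE 0.35, limma adjusted p = 0.390). Without knockdown clone 1 the change of COL8A1 was 1.22 and passed (limma adjusted p = 0.0115). COL15A1, a multiplexin, was the most spread chain, at 5.59, 5.17 and 3.49 in knockdown clones 1, 2 and 3 and 4.68, 4.47 and 4.56 in control clones 1, 2 and 3, and was above background in neither group as a whole. Its change of 0.18 (SE 0.48) became 0.81 without knockdown clone 3, where it passed (limma adjusted p = 0.0251), and −0.24 without clone 1.

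COL18A1, the multiplexin from which endostatin is cut, was lower in every knockdown clone, at 8.89, 8.87 and 8.49 against 9.17, 9.12 and 9.15 in control clones 1, 2 and 3. The change was −0.39 (SE 0.12, limma adjusted p = 0.216), and it passed with the mean of its 2 probe sets (change −0.50, limma adjusted p = 0.0466). COL23A1, a transmembrane collagen, was also lower in every knockdown clone (5.10 ± 0.05 against 5.38 ± 0.12) but was not above background in either group. None of the 10 fibril-associated chains was called in limma, with 0 at an unadjusted p under 0.05 and a median change of −0.03.

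**Figure D4:**
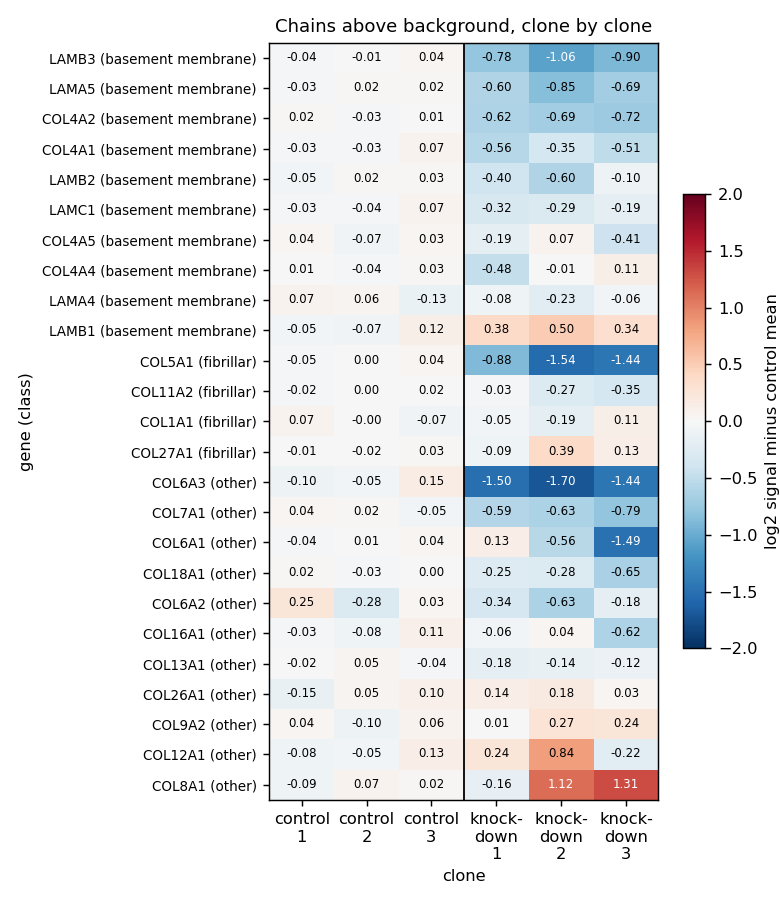
Log2 signal of each clone minus the mean of the control clones for the 25 chains above background in at least 1 group, with blue for lower and red for higher. The 6 called chains are blue in all knockdown clones, whereas COL6A1, on its brightest probe set, runs from 0.13 in clone 1 to −1.49 in clone 3 and COL8A1 from −0.16 in clone 1 to 1.31 in clone 3.

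Promoters are shown for the most reduced chain of each class to set their base composition side by side. Of the 53 chains 39 matched a window of RefSeq promoters (GRCh38.p14), and the lines below give the 250 bases before the start site, read on the strand of the gene. They are chr2:237414165-237414414 (minus strand) for COL6A3, chr9:134641553-134641802 (plus strand) for COL5A1 and chr1:209652426-209652675 (minus strand) for LAMB3, in each case the first window listed for the gene. Capitals mark any of the motifs ACGTG and GCGTG (the core of hypoxia response elements), TGACTCA (AP-1), GGGCGG (GC box), TATAAA and CAGACA (a SMAD-type element) on either strand.
COL6A3: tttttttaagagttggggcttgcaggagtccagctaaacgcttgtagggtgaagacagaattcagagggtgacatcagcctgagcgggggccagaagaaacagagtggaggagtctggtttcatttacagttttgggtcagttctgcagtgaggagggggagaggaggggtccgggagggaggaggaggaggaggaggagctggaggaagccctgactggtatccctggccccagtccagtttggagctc
COL5A1: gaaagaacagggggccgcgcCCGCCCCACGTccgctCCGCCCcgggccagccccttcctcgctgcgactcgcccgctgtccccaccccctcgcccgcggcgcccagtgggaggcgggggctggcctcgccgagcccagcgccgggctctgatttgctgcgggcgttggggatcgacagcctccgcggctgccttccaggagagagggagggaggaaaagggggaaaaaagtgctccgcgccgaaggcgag
LAMB3: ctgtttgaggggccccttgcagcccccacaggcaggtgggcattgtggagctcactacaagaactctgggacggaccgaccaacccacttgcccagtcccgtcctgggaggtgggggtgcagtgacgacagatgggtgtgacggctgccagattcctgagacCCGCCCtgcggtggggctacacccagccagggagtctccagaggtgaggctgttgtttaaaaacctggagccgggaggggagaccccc

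The COL6A3 stretch has 3 CG dinucleotides and none of these motifs, the COL5A1 stretch has 29 and the LAMB3 stretch 8. In windows of 300 bases that also take in the first transcribed bases, the GC box was found in 5 of the 6 called chains, in 23 of 39 chains with a window and in 44.6% of all 27305 windows. ACGTG, which lies directly beside a GC box in COL5A1 without overlapping it, was in 1 of the 6 called chains, 5 of the 39 and 21.6% of all windows, and GCGTG in 1, 14 and 36.3%. TATAAA and CAGACA were each found in COL7A1 alone among the 6, against 12.0% and 16.8% of all windows. TGACTCA was in 0 of the 39 and in 4.92% of all windows. These matches describe the letters of the windows.

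The called chains lie on different chromosomes (1, 2, 3, 9, 13 and 20). The 10 measured genes on each side of them had median changes from −0.10 beside COL6A3 to 0.06 beside LAMB3. Another gene called lower lay among these neighbours for LAMB3 (G0S2) and COL7A1 (PFKFB4), and a gene called higher for COL4A2 (LIG4). Around COL6A1 and COL18A1 on chromosome 21 the medians were −0.12 and −0.11, with 16 of 20 neighbours lower in each case and 16 of the neighbours in common. The part of these neighbourhoods in the chains' values was not tested.

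Genes that bind, fold, cross-link or degrade these chains were described from a list of 60, of which 57 were measured. The list was drawn up with earlier results of these data known. None was called in limma on its brightest probe set, against 0.42% of all genes called lower. Another probe set passed in BMP1 (1 of 7) and in P4HA2 (1 of 3). At an unadjusted p under 0.05, 13 were lower and 3 higher, against 7.67% and 9.11% of all genes. Of the 29 folding, processing and cross-linking genes measured, 10 were lower and 1 higher at that level. In 11 of them every knockdown clone lay below every control clone and in 2 above, against 12.6% and 12.1% of all genes. Their median change was −0.16, and the lowest adjusted p was 0.0529. Receptors had a median of −0.04 over 14 genes, linkers and basement membrane partners −0.07 over 7, and degrading enzymes and uptake receptors −0.01 over 7.

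The 6 calls depended on which clone was left out. Without control clone 1, 2 or 3 none of the 53 chains was called in limma (lowest adjusted p 0.0875, 0.0964 and 0.0888), while 11, 12 and 8 were lower at an unadjusted p under 0.05, and 2, 3 and 2 of all 19775 genes were called lower and 0 higher in each, against 83 lower and 63 higher with all clones. Without knockdown clone 2 the count was 1, COL6A3, with 15 lower and 5 higher among all genes. Without knockdown clone 1 the same 6 chains were called lower, and without clone 3 these 6 and LAMB2. Over all genes, 323 were then called lower and 384 higher without clone 1, and 441 and 784 without clone 3. The changes themselves moved little in these 6 fits, from −1.60 to −1.47 for COL6A3, −1.49 to −1.16 for COL5A1 and −0.98 to −0.84 for LAMB3. With this 3′ excess, the RNA quality index given above, in the model no chain was called in limma (lowest adjusted p 0.173). The changes were then −1.63, −1.79 and −1.09 for COL6A3, COL5A1 and LAMB3. The index was higher in every knockdown clone (2.11, 1.62 and 1.66) than in any control clone (1.13, 1.47 and 1.26). RNA quality and knockdown therefore cannot be told apart in these arrays.

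**Figure D5:**
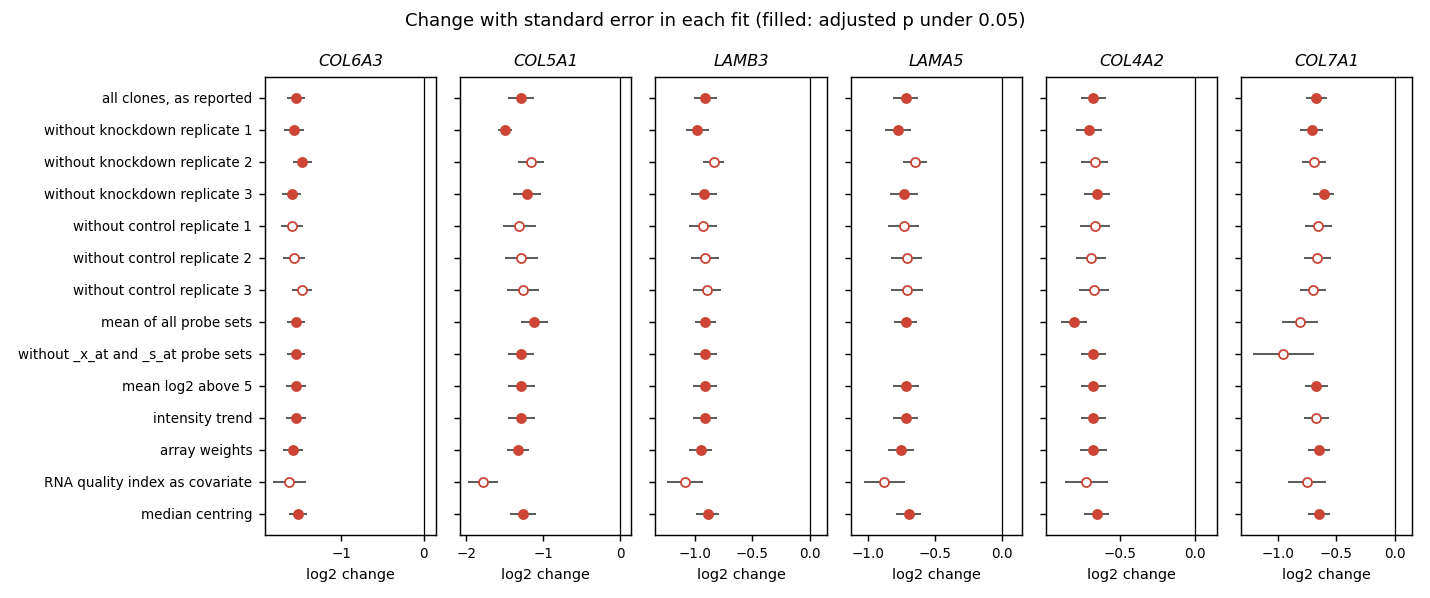
Change of the 6 called chains with its standard error in each fit shown, filled where the adjusted p was under 0.05. The fit with the replicate block, in which 0 chains were called, is not shown. All points lie below 0, and the fits without a control clone and with the RNA quality index have open symbols for all 6 chains. LAMA5 has no probe set in the fit without _x_at and _s_at probe sets.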

How the data were processed

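RNA from 6 clones (6 µg of total RNA each) was labelled from the polyadenylated end and hybridised to Affymetrix arrays, per the labels' protocols. The authors deposited log2 values from RMA (Affymetrix Expression Console 1.0, as the submitters' processing notes give it). RMA sets all arrays to 1 distribution, so a change shared by most transcripts is not seen. Array medians ran from 5.13 to 5.17, and the number of arrays limits precision. The table held 0 columns of other samples.

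Gene names came from the platform annotation, with symbols updated by identifier from RefSeq (GRCh38.p14): 41091 had 1 symbol (41037 matched), 1801 several and 11721 none. The 54613 probe sets that are not controls (62 are) were fitted with limma 3.58.1 in R 4.3.3 (lmFit, eBayes, group as the only term, two-sided), with Benjamini-Hochberg adjustment over all of them. The fit was tested on simulated data in which both groups had the same variance. In the real data the knockdown clones were more spread in 15169 of 19775 genes, which the simulation does not cover. Named genes are the called chains, in each class the 4 largest changes without overlap, chains of the same collagen type or laminin trimer, neighbouring pairs and the 3 most spread chains. Members and lists were chosen with earlier results of these data known.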

Additional observations from a re-analysis of the deposited data

How the results depend on the processing

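The count of chains called lower ran from 0 to 7 over fits leaving out 1 clone (6 with all clones) and was 0 with the replicate block and 0 with the RNA quality index in the model, where 13 and 9 chains were lower at an unadjusted p under 0.05. Chains called higher ran from 0 to 1 when 1 clone was left out. Leaving out 1 clone gave medians of −0.14 to −0.10 for all chains, −0.19 to −0.041 for fibrillar, −0.22 to −0.15 for basement membrane and −0.13 to −0.024 for other chains. With the mean of all probe sets the medians were −0.059 for all chains and −0.032 for basement membrane chains. Without _x_at and _s_at probe sets, which left 45 chains, they were −0.14 for fibrillar and −0.10 for basement membrane chains. Above a mean of 5 they were −0.24 for all, −0.27 for basement membrane and −0.25 for other chains. With the RNA quality index they were −0.19, −0.024 for fibrillar, −0.23 for basement membrane and −0.17 for other chains. The WASF3 change ran from −1.63 to −0.99 when 1 clone was left out and was −1.16 and passed with array weights. The 6 called chains kept their direction in all 14 fits, 13 for LAMA5. Signs reversed for COL15A1 (−0.24 to 0.81 over fits leaving out 1 clone, with −0.24 and −0.032 without knockdown clones 1 and 2, and −0.64 with the RNA quality index), COL4A3 (0.15 with that index), COL4A4 (0.053 without knockdown clone 1 and 0.30 with the index) and COL4A6 (−0.0066 to 0.39 over fits leaving out 1 clone, with −0.0066 and −0.0069 without knockdown and control clones 1, and −0.26 with the index). They also reversed for COL4A5 (0.011 with the mean of all probe sets and 0.20 without _x_at and _s_at), LAMB4 (0.047 and 0.20 in these fits) and COL6A5 (0.023 with the mean). The cause was not tested. The replicate block pairs clones by number (lowest adjusted p 0.0552), but the labels give no shared source and same-numbered clones deviated with correlations of −0.07, −0.10 and −0.04, so the samples share a number and no more. Signal over background limits 29 chains that were not above it in both groups.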

Other observations

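Antisense transcripts at chain genes were measured on separate probe sets. LAMA5-AS1, which overlaps LAMA5, read 6.47 ± 0.07 in knockdown and 6.40 ± 0.04 in control clones (n = 3) and differed by 0.07 (SE 0.09). LAMA4-AS1 read 5.57 ± 0.09 and 5.62 ± 0.13, and COL18A1-AS1 read 4.32 ± 0.10 and 4.42 ± 0.10. None was called in limma, and none had an unadjusted p under 0.05.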
